A study of Homo sapiens with 6 samples.

Results

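VIM, CDH2, VCAN and CD44 are 4 genes through which a mesenchymal state shows itself in carcinoma cells, and they were taken as a named group of 4 out of 34834 genes that had any quantified transcript. They were examined in SKOV3, an established human ovarian cancer cell line, after DNM3OS, a long non-coding RNA, was knocked down by siRNA. There were 6 samples. In 3 of them cells received 50 nM of a pool of 4 siRNAs against DNM3OS, and in the other 3 they received 50 nM of a non-targeting siRNA pool, with RNA taken 48 h after transfection in both groups. The comparison asks whether the mesenchymal genes change when DNM3OS is reduced. The question was put at the gene level, at the level of single transcripts, and for the isoforms of VCAN and CD44.

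Vimentin, the product of VIM, is the intermediate filament protein of mesenchymal cells, and epithelial cells acquire it when they pass through an epithelial-to-mesenchymal transition (EMT). CDH2 encodes N-cadherin, which replaces E-cadherin at the cell surface in that transition and binds catenins through its cytoplasmic tail. VCAN encodes versican, a large extracellular proteoglycan whose chondroitin sulfate chains are attached along stretches encoded by a pair of long alternative exons called GAG-alpha and GAG-beta. CD44 encodes the receptor for hyaluronan. A block of variable exons in the part of CD44 next to the membrane can be skipped, which gives the standard form, or included in combinations, which gives the variant forms.

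The isoform classes below rest on which exons a transcript joins, and for VCAN on whether it covers a long stretch of a GAG exon. The junctions between these exons are shown for that reason. Each sequence is 60 bases of GRCh38, with the last 30 bases of the upstream exon in lower case and the opening 30 bases of the downstream exon in capitals. In VCAN (chr5, plus strand) the upstream exon is chr5:83512103-83512396. GAG-alpha is the exon at chr5:83519349-83522309, of 2961 bases, and GAG-beta is the exon at chr5:83537007-83542268, of 5262 bases. In CD44 (chr11, plus strand) the upstream exon is chr11:35189835-35190065, the 9 variable exons lie between chr11:35196746 and chr11:35211449, and the standard form joins directly to the exon at chr11:35214852-35214914.
VCAN into GAG-alpha: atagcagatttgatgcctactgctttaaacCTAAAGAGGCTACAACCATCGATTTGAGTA
VCAN into GAG-beta: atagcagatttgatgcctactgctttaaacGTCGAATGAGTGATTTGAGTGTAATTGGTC
VCAN with both GAG exons skipped: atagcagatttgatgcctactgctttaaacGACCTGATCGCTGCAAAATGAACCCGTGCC
CD44 standard junction: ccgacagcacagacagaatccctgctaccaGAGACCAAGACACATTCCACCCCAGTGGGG
CD44 into the first variable exon: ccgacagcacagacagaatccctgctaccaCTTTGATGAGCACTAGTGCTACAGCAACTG
The 3 VCAN junctions share their upstream bases and differ only downstream, and the same holds for both CD44 junctions. The reads themselves were not examined here, so the isoform values below are the estimates that the authors' quantification assigned to whole transcripts.

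Each file gives, per transcript, an estimated count and a TPM, which is an abundance corrected for transcript length and scaled to the same total in each sample. The estimated counts summed to between 1610937 and 1995888 per sample, and 3 counts correspond to between 1.61 and 1.97 CPM, which are counts scaled to the library size, before TMM scaling. The transcript set held none of the 6 annotated DNM3OS transcripts, so the knockdown itself could not be read from these files. Counts of mRNAs that every cell uses were low. GAPDH had 27, 186 and 179 counts in the knockdown against 414, 101 and 289 in the controls, and the 80 ribosomal protein genes together took between 0.21% and 0.53% of gene counts. PTPRC, a leukocyte gene, had between 91 and 148 counts in these carcinoma cells, more than GAPDH in knockdown replicate 1 and in non-targeting replicate 2. BEST1, whose exons cover 1267 of the 2004 exon bases of FTH1 on the opposite strand, had between 26509 and 46756 counts while FTH1 itself had between 85 and 550. PLLP alone took between 15.7% and 22.3%. The library kit keeps strand, and the strand setting of the quantification is not given in the sources used here. Its part in the values below was not tested.

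None of the 4 genes passed the threshold in the knockdown. All had negative log2 fold changes, from -0.48 to -1.02, and in each of them the knockdown and control samples overlapped. The comparison used edgeR's exact test on TMM-scaled counts, with a threshold of at least 2-fold and a Benjamini-Hochberg adjusted p below 0.05. Among all 11814 genes tested 1 was called, which is 0.00846%. An unadjusted p below 0.05 in edgeR's exact test was reached by 345 of the 11814, the background for the counts of such genes given below. The groups did not overlap, in either direction, in 7.97% of all genes tested, and in 0 of these 4. By DESeq2 and by edgeR's quasi-likelihood test no gene was called, these 4 included.

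VIM (ENSG00000026025, chr10:17228241-17237593, plus strand) had 105, 279 and 379 estimated counts in the knockdown against 663, 191 and 573 in the controls. On the CPM scale these were 48.8, 188 and 266 against 378, 125 and 337. Non-targeting replicates 1 and 3 stood above every knockdown sample, and non-targeting replicate 2 fell below knockdown replicates 2 and 3. The mean was 168 ± 110 CPM in the knockdown and 279.9 ± 136 CPM in the controls (SD, n = 3 each). The log2 fold change of -0.74 had a standard error of 0.89, taken from the spread of log2 CPM between replicates, and the adjusted p of the edgeR exact test was 1. An exact two-sided permutation test of this gene alone gave p = 0.5, where 3 against 3 samples cannot go below 0.1.

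CDH2 (ENSG00000170558, chr18:27932879-28177946, minus strand) had few counts, with 13, 17 and 15 in the knockdown and 35, 12 and 18 in the controls. The 12 counts of non-targeting replicate 2 have an exact 95% Poisson interval from 6.2 to 21.0, which spans the counts of 5 of the 6 samples. Non-targeting replicate 1 stood above the rest. Mean CPM was 9.35 ± 2.90 in the knockdown and 12.8 ± 6.34 in the controls (SD, n = 3 each). The log2 fold change was -0.48 with a standard error of 0.44 and an adjusted p of 1 by the edgeR exact test, and the exact permutation p was 0.5.

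VCAN (ENSG00000038427, chr5:83471618-83582303, plus strand) had 42, 90 and 71 counts in the knockdown against 210, 40 and 110 in the controls. As for VIM, non-targeting replicates 1 and 3 were the highest and non-targeting replicate 2 fell among the knockdown samples, here below all of them in counts. Mean CPM was 43.4 ± 21.4 in the knockdown and 70.2 ± 47.0 in the controls (SD, n = 3 each). The log2 fold change of -0.70 had a standard error of 0.79 and an adjusted p of 1 by the edgeR exact test, with an exact permutation p of 0.4.

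CD44 (ENSG00000026508, chr11:35138882-35232402, plus strand) had the largest fold change of the 4. Its counts were 14, 21 and 18 in the knockdown and 45, 14 and 54 in the controls. The means were 11.1 ± 4.06 CPM and 22.2 ± 11.7 CPM (SD, n = 3 each), a log2 fold change of -1.02 with a standard error of 0.60. It was the only gene of the 4 with an unadjusted p below 0.05 in edgeR's exact test (p = 0.0402, adjusted p = 1). The exact permutation p was 0.3. Non-targeting replicate 2, at 9.17 CPM, again lay between knockdown replicate 1 at 6.51 CPM and knockdown replicate 3 at 12.6 CPM.

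**Figure D1:**
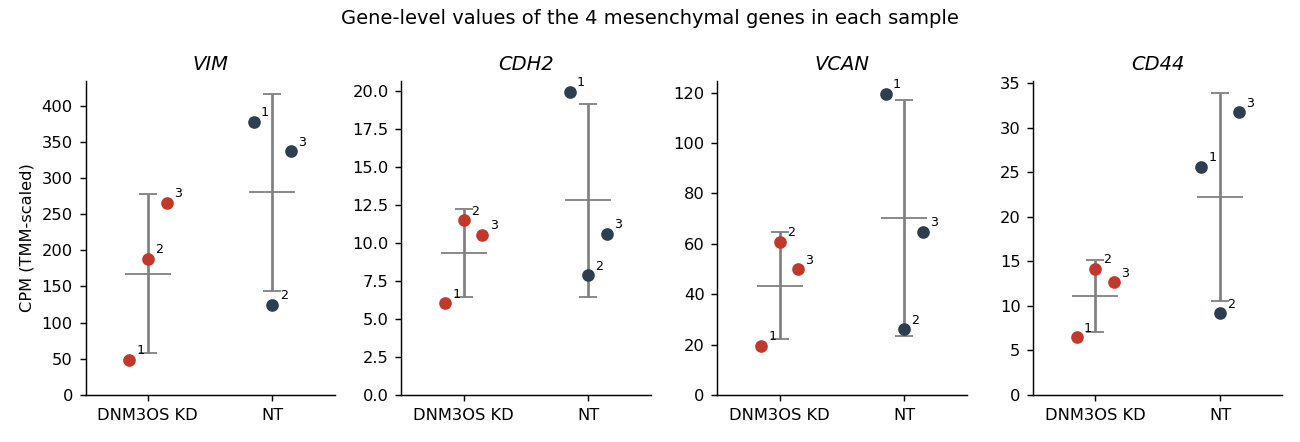
Gene-level CPM (vertical axis, TMM-scaled, from 0) of VIM, CDH2, VCAN and CD44 in the 3 DNM3OS knockdown (KD) and 3 non-targeting (NT) samples; points are samples with their replicate number, and grey marks are the mean and SD. In each gene non-targeting replicate 2 lies within the range of the knockdown samples, while non-targeting replicate 1 lies above all of them.

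Levels of different genes can be compared on the TPM scale, which corrects for length. VIM was the most abundant of the 4, with 154.7 ± 83.4 TPM in the knockdown and 253 ± 110 TPM in the controls (SD, n = 3 each). CD44 followed with 15.4 ± 6.88 and 25.7 ± 13.1 TPM. VCAN had 10.02 ± 3.84 and 13.7 ± 9.13 TPM, and CDH2 had 5.02 ± 2.98 and 6.32 ± 2.32 TPM. Only the top step of this order held in every sample without overlap. The lowest VIM value, 69.0 TPM, was above the highest CD44 value, 36.9 TPM, and the ratio of VIM to CD44 stayed between 7.10 and 11.8. CD44 exceeded VCAN in 5 of 6 samples and VCAN exceeded CDH2 in 5 of 6, with ranges that overlapped in both cases. These lower steps rest partly on few counts on short transcripts. CD44-203, with 3.22 counts, made up 73.6% of CD44 TPM in knockdown replicate 1. CDH2-205, with 3.02 counts, made up 75.6% of CDH2 TPM in non-targeting replicate 2. By estimated counts VCAN was above CD44 in every sample, with 40 to 210 against 14 to 54.

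The annotation holds 71 transcripts of the 4 genes, of which 64 were quantified, 24 of those at 0 in every sample. After the filter on low counts 7 were tested. Of these, 1 passed the threshold, beside 40 of all 15767 transcripts tested (0.254%). It was VIM-209 (ENST00000544301), which has the same coding exons as VIM-201 and starts 1037 bases further upstream, in an additional non-coding exon at chr10:17228241-17228524. VIM-209 had 12.2, 12.9 and 12.9 estimated counts in the knockdown and 37.97, 45.5 and 45.5 in the controls. All 3 knockdown samples lay below all 3 controls, as in 3.8% of all transcripts tested, and the samples within a group were close to each other. Mean CPM was 8.13 ± 2.12 in the knockdown and 27.7 ± 3.71 in the controls (SD, n = 3 each), a log2 fold change of -1.80 with a standard error of 0.23 and an adjusted p of 0.00136 in edgeR's exact test. The call rested on that test. The adjusted p was 0.536 in edgeR's quasi-likelihood test and 0.149 in DESeq2, with log2 fold changes of -1.78 and -1.80. Without non-targeting replicate 3 it was 0.0518 in the exact test.

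VIM-201, the form that held most VIM counts in 5 of 6 samples, behaved differently between replicates. It had 17.1, 224 and 301 counts in the knockdown and 572, 95.9 and 431 in the controls. In knockdown replicate 1 more counts were assigned to VIM-205, a short transcript without an annotated coding sequence, with 73.4 counts. VIM-205 had 37.7 and 58.2 counts in the other knockdown samples and 20.7, 33.6 and 77.0 in the controls. Neither transcript passed the test, with a log2 fold change of -0.84 (standard error 1.64) for VIM-201 and 0.30 (standard error 0.55) for VIM-205 and an adjusted p of 1 for both in edgeR's exact test. VIM-209 made up between 2.61% and 6.47% of VIM TPM in the knockdown and 4.83%, 16.7% and 6.16% in the controls, so the difference in VIM-209 was a small part of VIM. VIM-201 and VIM-209 differ only at their 5′ end, and their separate estimates depend on reads from that end.

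**Figure D2:**
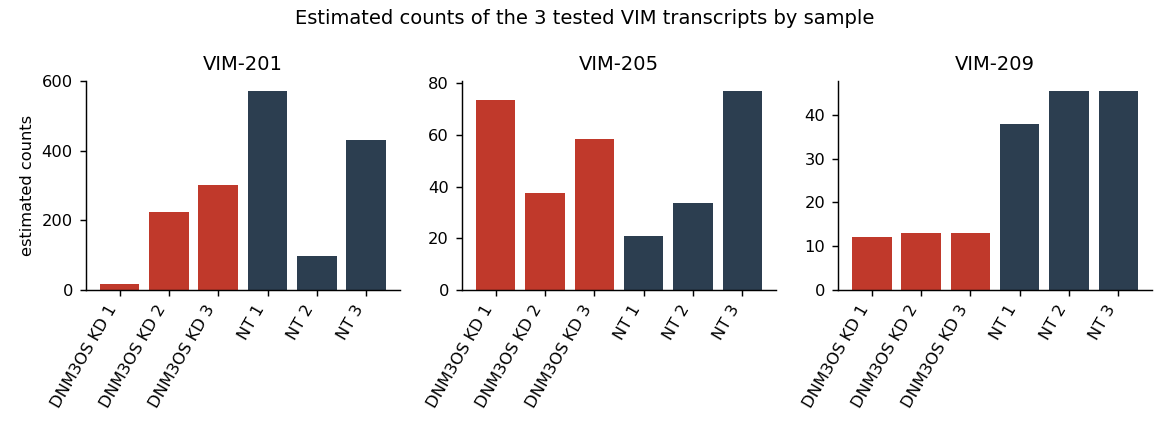
Estimated counts (vertical axes, from 0, on a separate scale in each panel) of VIM-201, VIM-205 and VIM-209 in the 3 DNM3OS knockdown (KD, red) and 3 non-targeting (NT, dark) samples, with 1 bar per sample. VIM-209 has 12.2 to 12.9 counts in the knockdown samples and 37.97 to 45.5 in the controls, while the groups overlap for VIM-201 and VIM-205.

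Since the call concerned the transcript with the upstream start, the 250 bases before that start are shown, from RefSeq on GRCh38.p14, at chr10:17227991-17228240 on the plus strand. The capitals mark a GC box, GGGCGG, the letters bound by SP1-type factors.
VIM promoter: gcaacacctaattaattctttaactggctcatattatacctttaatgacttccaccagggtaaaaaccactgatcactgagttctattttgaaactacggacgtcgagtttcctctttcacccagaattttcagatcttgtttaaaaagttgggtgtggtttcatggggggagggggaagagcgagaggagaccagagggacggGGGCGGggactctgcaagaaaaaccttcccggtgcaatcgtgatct
These bases are 46% G and C. Among the 35116 promoters of the same table, searched on both strands over the 250 bases before the start, 42.6% hold a GC box. VIM held 1, VCAN held 1 and CD44 held 2. For VIM the window searched was the one before the upstream start, and the bases directly before the start of VIM-201 were not searched. CDH2 has a pair of listed starts, and a GC box was found at 1 of them. The letters CACCTG, the E2-box to which EMT transcription factors of the SNAI and ZEB families bind, were found in none of these windows and in 17.5% of all promoters. The absence says only that these letters are not in these windows.

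Genes annotated on the opposite strand over the 4 genes were VIM-AS1 and ENSG00000234961 over VIM, ENSG00000227279 over CDH2, VCAN-AS1 over VCAN, and CD44-AS1 and CD44-DT over CD44. All are long non-coding RNAs. The transcript set held 0 transcripts of any of them, so no value of theirs can be set beside the sense genes. The additional exon of VIM-209 overlaps 0 exons of VIM-AS1.

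Most estimated counts of versican lay on transcripts with the GAG-beta exon. The full-length form with both GAG exons, VCAN-201, had 36.4, 82.7 and 39.4 counts in the knockdown and 161, 25.9 and 42.9 in the controls. The fitted log2 fold change of -0.48 had a standard error of 0.89 and, in edgeR's exact test, an adjusted p of 1. VCAN-210, a partial transcript that enters GAG-beta directly, had 0.745, 2.60 and 14.7 counts in the knockdown and 43.6, 14.1 and 23.1 in the controls. Its log2 fold change of -1.94 (standard error 0.93) had an adjusted p of 1 in the same test, and knockdown replicate 3 lay above non-targeting replicate 2. Without that knockdown sample, an alternative chosen after seeing the data, the log2 fold change was -3.77 and the adjusted p of the exact test was 0.02. With any other sample left out, the log2 fold change ran from -2.20 to -1.36, and VCAN-210 did not pass. Nor did it pass in the quasi-likelihood test or in DESeq2.

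Transcripts classed as holding the GAG-beta exon, by a long stretch of it, made up 37.9%, 48.2% and 77.0% of VCAN TPM in the knockdown. In the controls they made up 86.0%, 100% and 90.6%, without overlap between the groups. The means were 54.4 ± 20.3% and 92.2 ± 7.12% (SD, n = 3 each), a difference of -37.8 percentage points. The exact permutation p was 0.1, the smallest that 3 against 3 samples allow. It was not adjusted for the 32 shares of single isoform classes that were also compared. The rest of the knockdown TPM lay mostly on short transcripts outside this class, where a few counts give a large TPM. By their coordinates VCAN-207 and VCAN-212 reach into GAG-beta, but they cover only a short part of it and were not classed with it. They held 17.3% and 17.85% of VCAN TPM in knockdown replicate 2, and VCAN-212 held 13.97% in non-targeting replicate 1. The size of the difference in TPM share therefore depends in part on the class rule. By estimated counts the GAG-beta share was 88.1%, 94.4% and 97.2% in the knockdown and 99.0%, 100% and 92.7% in the controls, and the groups overlapped. Among coding transcripts alone the difference in TPM share was -11.6 percentage points (exact permutation p = 0.7). The exact 95% Clopper-Pearson interval of the lowest of these, 37 of 42 counts in knockdown replicate 1, ran from 74.4% to 96.0%, and that of non-targeting replicate 3, 102 of 110 counts, from 86.2% to 96.8%. These intervals cover counting error only, and estimated counts are not independent molecules.

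The class of CD44 transcripts that took the largest share depended on the scale and on the sample. In non-targeting replicate 3 it was the standard junction on both scales. In knockdown replicate 3 it was transcripts with neither variable exons nor the standard junction, with 49.55% of counts and 64.1% of TPM. Some of this class, such as CD44-203, extend across the variable region by their coordinates. Transcripts with the standard junction had 71.4%, 76.2% and 33.3% of CD44 counts in the knockdown and 55.6%, 71.4% and 77.8% in the controls. Of CD44 TPM they had 16.6%, 29.1% and 7.76% in the knockdown and 15.6%, 17.8% and 44.1% in the controls, less than 50% in every sample. Transcripts with variable exons had 1 of 14, 3 of 21 and 3 of 18 counts in the knockdown and 13 of 45, 4 of 14 and 4 of 54 in the controls. With so few counts no difference in variable exon use was detectable. The exact 95% Clopper-Pearson interval was 0.18% to 33.9% for knockdown replicate 1 and 16.4% to 44.3% for non-targeting replicate 1. A further share was taken of the TPM of all coding CD44 transcripts, also those with neither variable exons nor the standard junction. Variable exons had 0%, 24.5% and 85.6% of it in the knockdown and 43.6%, 71.6% and 57.6% in the controls. The groups overlapped, with a difference in means of -20.9 percentage points and an exact permutation p of 0.5.

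The standard coding form CD44-201 had 9.48, 14.1 and 5.17 counts in the knockdown and 24.6, 9.73 and 15.7 in the controls (log2 fold change -0.88, standard error 0.48, adjusted p = 1 in edgeR's exact test). CD44-207, a standard-junction transcript annotated for nonsense-mediated decay, had 26.05 counts in non-targeting replicate 3, at most 1.92 in the knockdown samples and 0 in the other controls. The highest CD44 count of the series, 54 in non-targeting replicate 3, thus held 48.1% of its counts on a transcript that no other sample had at a similar level.

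**Figure D3:**
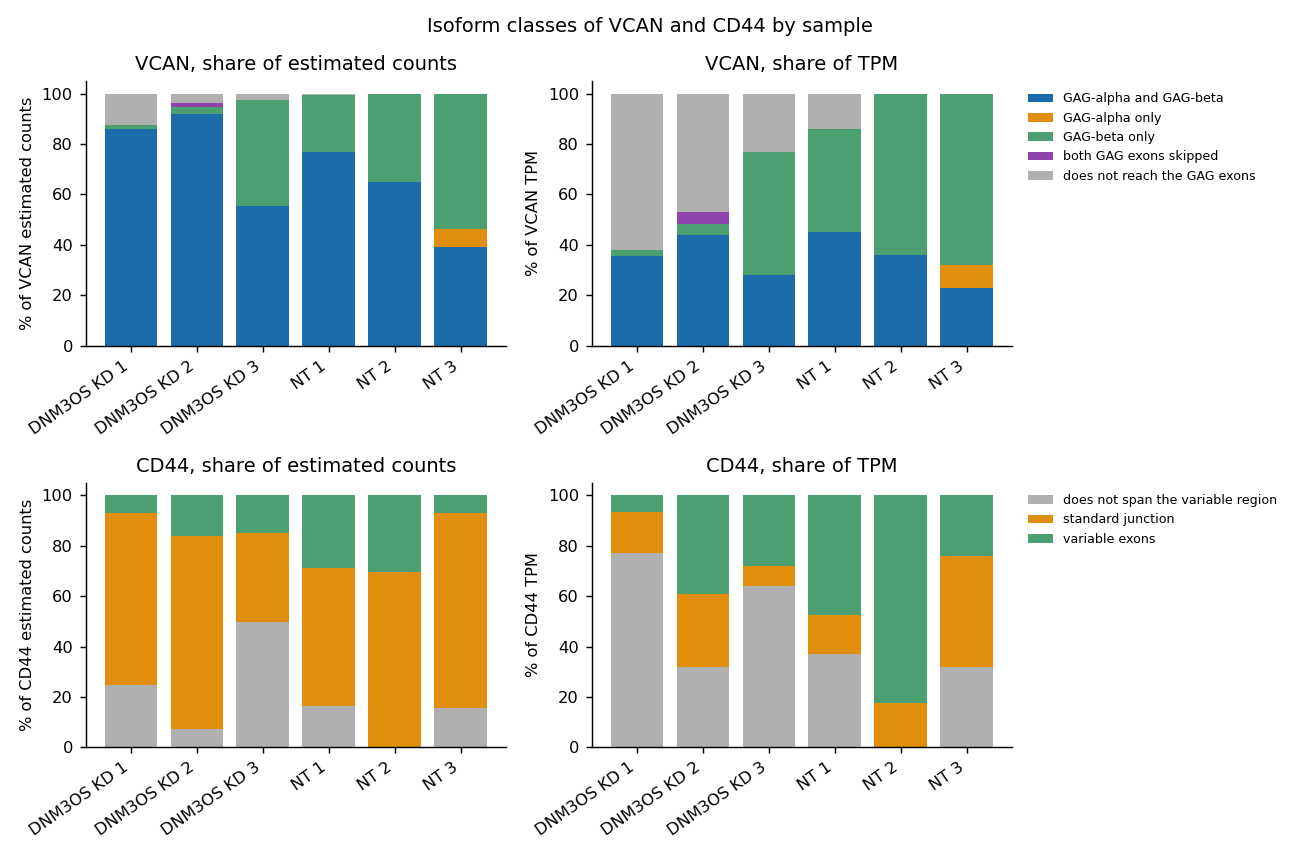
Isoform classes of VCAN (top) and CD44 (bottom) in the 6 samples, as a percentage of the gene's estimated counts (left) and of its TPM (right); KD is DNM3OS knockdown and NT non-targeting. Summed, the GAG-beta classes of VCAN separate the groups by TPM and not by counts, and neither class does so alone. The variable-exon class of CD44 overlaps between groups on both scales. The VCAN class labelled as not reaching the GAG exons includes VCAN-207 and VCAN-212, which cover a short part of GAG-beta. The CD44 class labelled as not spanning the variable region holds all transcripts with neither variable exons nor the standard junction.

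DNM3OS is the host transcript of miR-199a and miR-214, which lie at chr1:172138816-172144614 on the minus strand. These small RNAs were not measured here. Their mature sequences, from RefSeq on GRCh38.p14, are given with the seed, bases 2 to 8, in capitals, because the seed is what a target site in the 4 genes would pair with.
hsa-miR-199a-5p: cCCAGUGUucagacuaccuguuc
hsa-miR-199a-3p: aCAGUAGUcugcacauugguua
hsa-miR-214-5p: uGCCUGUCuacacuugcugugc
hsa-miR-214-3p: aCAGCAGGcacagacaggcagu
The 4 seeds differ from each other. Complements of these seeds were searched in the 3′ UTR of 1 reference transcript of each gene. VIM and VCAN held none for any of the 4. CDH2 held 1 for miR-199a-5p, at chr18:27951130-27951136 on the minus strand, and CD44 held 1 for miR-214-5p, at chr11:35231292-35231298 on the plus strand. Both are shown with the bases upstream, the match in capitals.
CDH2 match to miR-199a-5p: aaaggggtggcctgACACTGGt
CD44 match to miR-214-5p: ctgccagaggcccaGACAGGCt
Of 3′ UTRs of like length, 10.3% hold the miR-199a-5p match and 14.4% the miR-214-5p match. A match is a run of letters, and no repression was measured.

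Across the 6 samples the 4 genes moved together. On log2 CPM, Pearson's r between pairs lay between 0.77 and 0.97, and 5 of the 6 pairs had an adjusted p below 0.05 in an exact permutation test, Benjamini-Hochberg adjusted over the 6 pairs. The closest pair was CDH2 and VCAN, with r = 0.97 and Spearman's rho = 0.94 (exact permutation p = 0.00833 and 0.0167, adjusted 0.0208 and 0.0333). Leaving out the samples farthest from the median of CDH2, knockdown replicate 1 and non-targeting replicate 1, r was 0.96. VIM and VCAN had r = 0.91 and rho = 0.94 (exact permutation p = 0.00833 and 0.0167, adjusted 0.0208 and 0.0333), and r was 0.63 without 2 samples.

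VIM and CD44 had r = 0.89 and rho = 0.89 (exact permutation p = 0.0111 and 0.0333, adjusted 0.0208 and 0.05), with r = 0.78 without 2 samples. VCAN and CD44 had r = 0.88 and rho = 0.94 (exact permutation p = 0.0222 and 0.0167, adjusted 0.0267 and 0.0333), with r = 0.76 without 2 samples. VIM and CDH2 had r = 0.85 and rho = 0.83 (exact permutation p = 0.0139 and 0.0583, adjusted 0.0208 and 0.0583), and r fell to 0.54 without knockdown replicate 1 and non-targeting replicate 2, on which that relation rests in part. CDH2 and CD44 had r = 0.77 and rho = 0.83 (exact permutation p = 0.0694 and 0.0583, adjusted 0.0694 and 0.0583) and did not pass. With 3 samples in a group, no correlation within a group was computed.

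The same axis ran through several mRNAs of general cell upkeep, and less clearly through ACTB. Ribosomal protein genes took 0.21%, 0.37% and 0.38% in the knockdown and 0.53%, 0.30% and 0.51% in the controls as a share of gene counts, so non-targeting replicate 2 lay below knockdown replicates 2 and 3 here as well. Log2 CPM of VIM followed the log2 of this share with r = 0.98 and rho = 1 (exact permutation p = 0.00278 for both, adjusted 0.0148 over 16 relations computed). For CD44 r was 0.96 and rho 0.89 (exact permutation p = 0.0111 and 0.0333, adjusted 0.0178 and 0.0485), for VCAN r was 0.93 and rho 0.94 (exact permutation p = 0.00556 and 0.0167, adjusted 0.0167 and 0.0267), and for CDH2 r was 0.86 and rho 0.83 (exact permutation p = 0.0194 and 0.0583, adjusted 0.0259 and 0.0718). Without the 2 samples farthest from its median, r was 0.94 for VIM, 0.97 for CD44, 0.82 for VCAN and 0.62 for CDH2. The other 12 relations, with GAPDH, FTH1 and ACTB, gave r between 0.55 and 0.98. ACTB had the lowest r for each of the 4 genes. Its adjusted p in the exact permutation test of r was 0.111 for VIM, 0.208 for CDH2, 0.181 for VCAN and 0.0342 for CD44. Without 2 samples its r lay between -0.07 and 0.26. These reference measures were chosen after the data were seen. With size factors taken from the 80 ribosomal protein genes in place of TMM, 0 of the 6 pairs of the 4 genes had an adjusted p below 0.05 and r lay between -0.31 and 0.55. On log2(TPM + 1) 1 of the 6 pairs had.

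**Figure D4:**
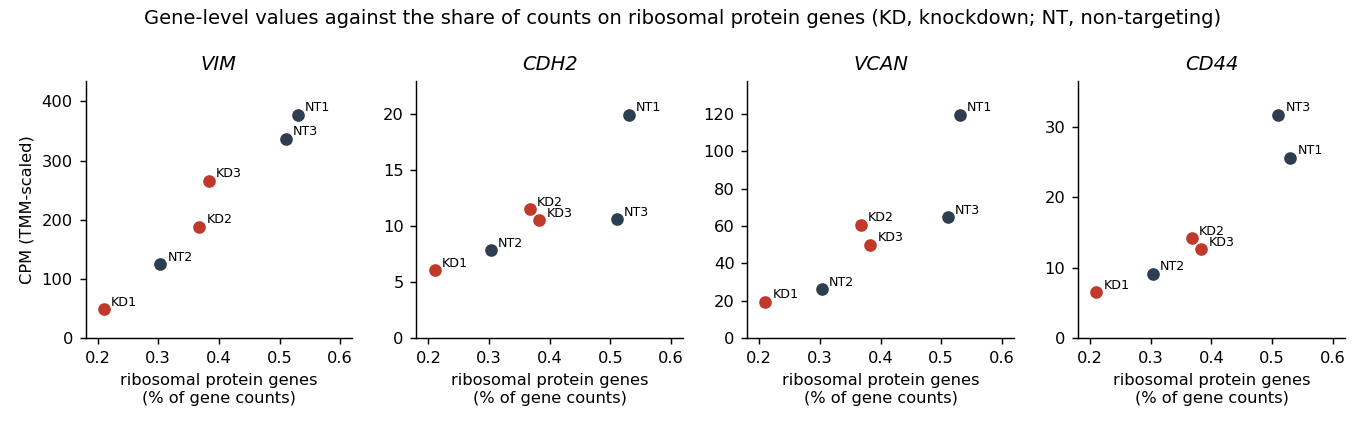
Gene-level CPM (vertical axes, TMM-scaled, from 0) of VIM, CDH2, VCAN and CD44 against the percentage of gene counts on the 80 ribosomal protein genes (horizontal axis, from 0.18 to 0.62), with 1 point per sample (KD, DNM3OS knockdown, red; NT, non-targeting, dark). In all 4 panels non-targeting replicate 2 has the lowest share of the controls and lies beside the knockdown samples.

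That scaling also moved the median log2 fold change of all genes from 0.00 to 0.56. The 4 genes then had log2 fold changes of -0.34 for VIM, 0.06 for CDH2, -0.19 for VCAN and -0.46 for CD44. Relative to the shifted median these were -0.90, -0.50, -0.74 and -1.02, close to the values under TMM. A change of size factors moves all genes by nearly the same amount, so such relative values change little by construction. VIM-209 was ordered differently. Non-targeting replicate 2, with a ribosomal protein share of 0.30%, had 45.5 VIM-209 counts, while knockdown replicates 2 and 3, with shares of 0.37% and 0.38%, had 12.9 each. Under ribosomal protein scaling its log2 fold change was -1.34, or -1.93 relative to the median of all transcripts, with an adjusted p of 0.777 in edgeR's exact test.

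The genes whose log2 CPM was most like each of the 4 over the 6 samples, among genes with a mean of at least 50 counts, were named by Pearson's r as a description. For VIM they were PRPF38B, RPL23, TUBB4B, ANXA2 and HSPA9, with r from 0.9953 to 0.9991, and 408 of 4429 genes (9.21%) reached 0.9. For CDH2 they were SMARCA5, H2AC19, TMBIM6, ATAD2 and DOCK3, with r from 0.979 to 0.992, and 97 of 4430 genes (2.19%) reached 0.9. VCAN was most like NOL7, CLSPN, H2AC19, HDAC1 and STMN1 (0.986 to 0.992, 190 genes at 0.9 or more), and CD44 most like TPM3, PHKG2, RNPS1, RPS14 and RPS20 (0.981 to 0.9945, 143 genes). Ribosomal protein genes stand in the lists of VIM and CD44.

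Of genes that work with vimentin (other filament proteins, linkers and kinases that act on filaments), none passed the test. All 15 tested of 18 listed had negative log2 fold changes, with a median of -0.43, where 49.4% of all genes tested were lower and the median was 0.00, and the groups overlapped in 14 of the 15. The edgeR exact test called 0, with 1 at an unadjusted p below 0.05, and neither the quasi-likelihood test nor DESeq2 called any gene. That gene was PLK1, a mitotic kinase that phosphorylates vimentin, with 35, 21 and 29 counts in the knockdown and 56, 36 and 59 in the controls (log2 fold change -0.83, standard error 0.22, adjusted p = 1 in edgeR's exact test). Its groups did not overlap in CPM. LMNB2, a nuclear lamin, had a log2 fold change of -0.82 and CDK1, the mitotic cyclin-dependent kinase, of -1.17, with standard errors of 0.77 and 0.81. The direction of all 15 held under RLE and library size scaling. Under ribosomal protein scaling 7 of the 15 were lower. All 15 lay below the shifted median of all genes, as under TMM, a position that a change of size factors alters little by construction.

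The partners of N-cadherin stayed near the level of all genes. Of 12 tested of 16 listed, 0 were called and 0 had an unadjusted p below 0.05 in edgeR's exact test, and the median log2 fold change was -0.03. CTNNA1, the alpha-catenin that links cadherins to actin, had 98, 133 and 114 counts in the knockdown and 217, 112 and 194 in the controls (log2 fold change -0.54, standard error 0.38). CTNNB1, the beta-catenin bound by the cadherin tail, had -0.44 (standard error 0.31). The groups overlapped in both, and both had an adjusted p of 1.

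The matrix partners of versican, the enzymes that build chondroitin sulfate and the proteases that cut versican showed no common direction. Of 24 listed genes 11 were tested, 0 were called and 0 had an unadjusted p below 0.05 in edgeR's exact test, 5 were lower and 6 higher, and the median was 0.03. FBLN1, a fibulin of the matrix, had 491, 211 and 234 counts in the knockdown and 251, 241 and 258 in the controls, with the high value in knockdown replicate 1. DCN, the small proteoglycan decorin, had a log2 fold change of 0.27 (standard error 0.23), and XYLT2, which starts glycosaminoglycan chains by adding xylose, of -0.21 (standard error 0.13).

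Around CD44, 13 of 20 listed ligands, hyaluronan enzymes, adaptors and sheddases were tested, and 0 were called by edgeR's exact test, with 1 at an unadjusted p below 0.05. It was SPP1, which encodes osteopontin, a secreted ligand of CD44. SPP1 had 5, 11 and 17 counts in the knockdown and 69, 5 and 33 in the controls (log2 fold change -1.54, standard error 1.095). HMMR, another hyaluronan-binding receptor, had 8, 14 and 12 counts against 25, 15 and 24 (log2 fold change -0.87, standard error 0.38), and its groups did not overlap. CEMIP, which takes part in hyaluronan breakdown, had 95, 26 and 29 counts against 29, 25 and 34 (log2 fold change 0.65, standard error 0.41). Each of these 3 genes had an adjusted p of 1.

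Of regulators of CD44 splicing, none passed the test. Of 17 listed genes 15 were tested and 13 had negative log2 fold changes, with a median of -0.49, and the groups overlapped in 14 of the 15. The edgeR exact test called 0, with 3 of the 15 at an unadjusted p below 0.05, beside 345 of all 11814 genes tested. These were DDX17, an RNA helicase that takes part in splicing, with 46, 65 and 49 counts in the knockdown and 96, 66 and 113 in the controls (log2 fold change -0.74, standard error 0.34), HNRNPA1 with a log2 fold change of -0.69 (standard error 0.38) and HNRNPL with -0.68 (standard error 0.44). The last 2 encode nuclear RNA-binding proteins that act on exon choice. All 3 had an adjusted p of 1, and in each the groups overlapped. Under ribosomal protein scaling 9 of the 15 were lower. As under TMM, 13 lay below the median of all genes, which a change of size factors alters little by construction.

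The remaining EMT genes did not move in 1 direction. Of 18 tested of 26 other mesenchymal genes, 10 were lower and 8 higher and 0 were called, with 1 at an unadjusted p below 0.05 in edgeR's exact test. It was FN1, which encodes the matrix protein fibronectin. FN1 was higher in the knockdown, with 479, 203 and 196 counts against 158, 192 and 171 (log2 fold change 0.66, standard error 0.27, adjusted p = 1), and its groups did not overlap in CPM. S100A4, a calcium-binding protein used as a mesenchymal marker, had a log2 fold change of -0.89 (standard error 0.74), and ENG, a TGF-beta co-receptor, of -0.31 (standard error 0.11).

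Of 20 epithelial genes 11 were tested, with 0 called and 0 at an unadjusted p below 0.05 in edgeR's exact test and a median of -0.11. KRT8, the keratin filament protein of simple epithelia, had between 1195 and 2566 counts in every sample and a log2 fold change of 0.39 (standard error 0.39). DSP, the desmosomal protein desmoplakin, had -0.93 (standard error 0.73), and GRHL2, an epithelial transcription factor, had 0.84 (standard error 0.34). Among EMT transcription factors 6 of 10 were tested, and 0 were called, with 0 at an unadjusted p below 0.05. TCF3, an E-protein, had a log2 fold change of -0.48 (standard error 0.88), TCF4, a related E-protein, had 0.29 (standard error 0.42) and TWIST1 had 0.16 (standard error 0.38), with 12, 12 and 16 TWIST1 counts in the knockdown and 12, 16 and 8 in the controls.

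Markers of the cell line and of other cell types were set beside these. Of 12 SKOV3 and ovarian carcinoma markers 7 were tested and 0 called by edgeR's exact test, with 0 at an unadjusted p below 0.05. The summed level of all 12 ran from 1133 to 2045 CPM in the knockdown and from 1127 to 1629 CPM in the controls, before TMM scaling. KRT8 held most of that sum in every sample, with 1684 of 2116 counts in knockdown replicate 1 and 1767 of 2927 in non-targeting replicate 1. WT1, MUC16, MSLN and FOLR1 had at most 5 counts in any sample, and KRT7 at most 12. ERBB2, amplified in SKOV3, had 311, 398 and 409 counts in the knockdown and 872, 365 and 604 in the controls (log2 fold change -0.64, standard error 0.44). SOX17, a transcription factor of this tumour type, had a log2 fold change of -0.66 (standard error 0.27). Of 10 leukocyte and endothelial markers 2 were at 0 in all samples and 4 were tested, with 0 called and 0 at an unadjusted p below 0.05, and their sum ran from 101 to 143 CPM in the knockdown and from 93.9 to 118 CPM in the controls. PTPRC had a log2 fold change of 0.19 (standard error 0.17) and LYZ, the lysozyme of myeloid cells, of 0.52 (standard error 0.49). What part the counts on these genes have in the values of the 4 genes was not tested.

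**Figure D5:**
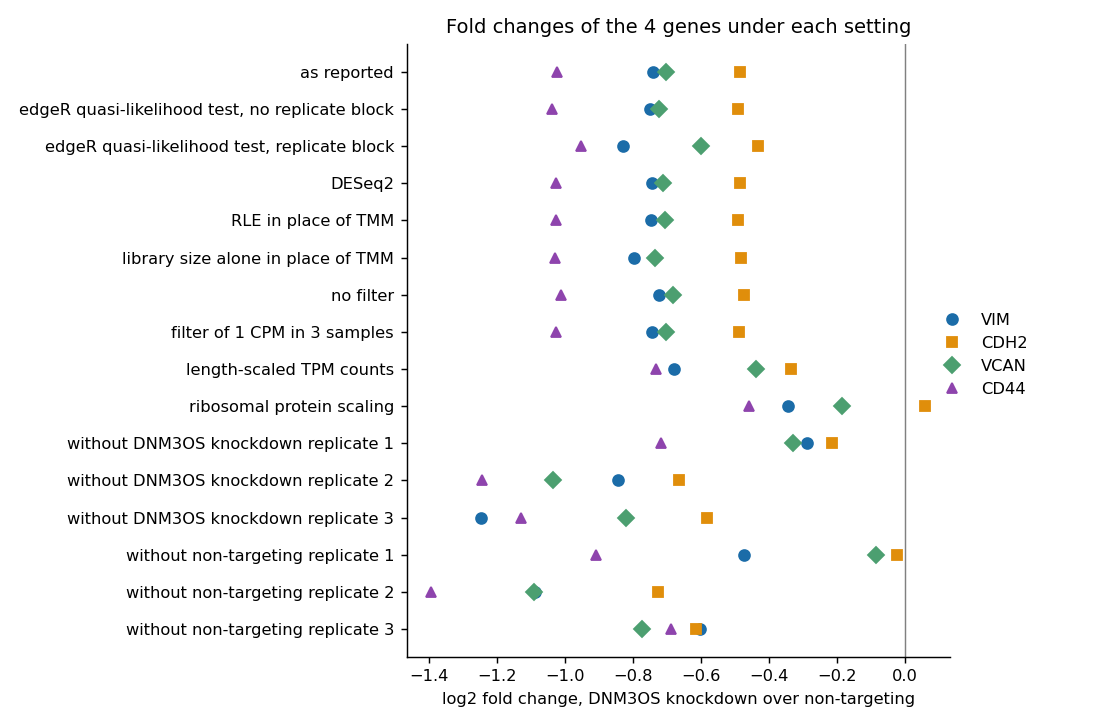
Log2 fold changes (horizontal axis, knockdown over non-targeting; 0 is the vertical line) of VIM, CDH2, VCAN and CD44 as reported and under 15 other settings (rows). All values of VIM, VCAN and CD44 are below 0, and CDH2 is above 0 under ribosomal protein scaling alone, at 0.06.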

How the data were processed

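RNA sequencing of 3 DNM3OS knockdown and 3 non-targeting SKOV3 samples was analysed, grouped by their labels. Per the labels and the study's methods, total RNA depleted of ribosomal RNA was made into stranded libraries, and the authors ran kallisto 0.43.0 on the reads with the Ensembl transcripts of GRCh38. The deposited files hold an estimated count without normalization and a TPM per transcript. Nothing says that replicates came from separate cultures, so p-values measure the spread between these samples, which may be technical.

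Of 173259 transcripts, 155518 were matched by identifier to GENCODE 44, which is on the same build. The rest held 4.79% to 6.38% of counts and were not used. Counts were summed per gene, rounded, filtered (filterByExpr, minimum count 10), TMM-normalized and tested with the exact test of edgeR 4.0.16 (R 4.3.3), the test the study names. CPM are TMM-scaled. Transcripts were tested in the same way. The biological coefficient of variation was 0.23. DESeq2 1.42.0, SciPy 1.17.1 and matplotlib 3.10.9 served the alternatives, exact permutation tests and plots. The test was checked on simulated counts. Isoform classes follow the exons of GENCODE 44.

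The genes, gene lists and tests were chosen with earlier results of these data known. Named were the 4 genes, their transcripts with a mean of at least 5 counts, genes opposite them, for each the 5 most correlated genes with a mean of at least 50 counts, and from each list every gene past the threshold or otherwise the 3 with the smallest p. Some genes that this rule selects are not reported here.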

Additional observations from a re-analysis of the deposited data

How the results depend on the processing

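Under 15 alternative settings VIM, VCAN and CD44 were lower in the knockdown in all and CDH2 in 14, and none was past the threshold in any. CDH2 was 0.0602 under ribosomal protein scaling, an alternative chosen after seeing the data. With 1 sample left out, log2 fold changes ran from -1.25 to -0.29 for VIM, from -0.73 to -0.02 for CDH2, from -1.09 to -0.09 for VCAN and from -1.39 to -0.69 for CD44. VCAN and CDH2 moved most without non-targeting replicate 1, VIM without knockdown replicate 3 and CD44 without non-targeting replicate 2.

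The number of genes past the threshold, 1 as reported, was 0 in edgeR's quasi-likelihood test, in DESeq2 and under ribosomal protein scaling, 2 with library size alone, 2 with no filter, 2 with a filter of 1 CPM, 3 with length-scaled TPM counts and between 1 and 3 with 1 sample left out. The number of transcripts, 40 as reported, was 0 in the quasi-likelihood test, 23 in DESeq2 and between 53 and 155 with 1 sample left out.

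For VIM-209, whose alternatives were chosen after seeing its call, the log2 fold change was -1.78 in the quasi-likelihood test (adjusted p = 0.536), -1.80 in DESeq2 (0.149) and -1.34 under ribosomal protein scaling (0.777). With 1 sample left out it ran from -1.92 to -1.54, with an adjusted p of the exact test from 0.00905 to 0.0518. The difference in the TPM share ran from -49.2 to -29.6 percentage points for GAG-beta in VCAN and from -45.4 to -2.58 for variable exons in CD44 with 1 sample left out.

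Among other transcripts, the log2 fold change of VCAN-201 was 0.63 without non-targeting replicate 1 and 0.12 under ribosomal protein scaling, that of VIM-205 ran from -0.045 without non-targeting replicate 1 to 0.939 without non-targeting replicate 3, and that of CDH2-201 was 0.02 without knockdown replicate 1, 0.13 without non-targeting replicate 1 and 0.41 under ribosomal protein scaling. The count of correlated pairs, 5 as reported, was 1 on log2(TPM + 1) and 0 under ribosomal protein scaling, where r was -0.31 for VIM and CDH2 and -0.24 for CDH2 and CD44. The causes were not tested.

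The replicate numbers are shared between groups, and the sources do not say whether they pair the samples. Deviations from the group means correlated at -0.40, -0.34 and 0.23 between same-numbered samples. Knockdown replicate 1 correlated best with non-targeting replicate 2, at 0.53. These correlations cannot decide whether samples were paired, because the 3 deviations within a group are not independent of each other. With the replicate block, the quasi-likelihood test called 0 genes and 0 transcripts, and VIM-209 had a log2 fold change of -1.79 (adjusted p = 0.999). Depth limits CDH2, CD44 and the isoform shares, which rest on as few as 12 counts per sample.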
